A study of Mus musculus with 10 samples.

Results

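Checkpoint receptors and B7 ligands were followed in the tumor-draining lymph nodes (TDLNs) of mice after microwave ablation (MWA), with or without the glycolysis inhibitor 2DG. The 10 genes were taken by symbol: 6 receptors (Pdcd1, Lag3, Havcr2, Tigit, Btla and Cd28) and 4 ligands (Cd274, Pdcd1lg2, Cd80 and Cd86), out of 33585 genes in the tables. All 10 were found in each of the 10 libraries, and all 10 were among the 13334 genes with a mean FPKM of at least 1 that were tested. FPKM counts sequenced fragments per length of transcript and per total of mapped fragments, so levels of different genes can be set side by side.

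The libraries came from 10 female, 6-week-old, immune-competent BALB/c mice carrying 4T1 mammary carcinoma cells implanted in the right 4th mammary fat pad. All 10 tumors were ablated on day 10, and the TDLNs were collected on day 15 for bulk RNA-seq, with 1 library per mouse and no group without ablation among these samples. From day 10, 5 mice were injected intraperitoneally with 2DG (2-deoxy-D-glucose, a glucose analogue) at 500 mg/kg every 2 days (MWA+2DG), and 5 were given the solvent PBS (MWA+PBS; the sample labels read only MWA). Because each library is a whole node, fewer cells of a type cannot be told apart from less RNA per cell.

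A T cell answers antigen only when a second signal accompanies the T cell receptor. CD28 gives that signal when it meets CD80 or CD86 on an antigen-presenting cell. PD-1 (encoded by Pdcd1) recruits phosphatases to the same complex when it meets PD-L1 (Cd274) or PD-L2 (Pdcd1lg2), and CD28 is a known target of that brake. LAG-3 binds MHC class II, TIM-3 (Havcr2) binds galectin-9 among others, TIGIT competes with CD226 for PVR, and BTLA binds HVEM (Tnfrsf14). In lymph nodes these receptors sit mainly on T cells, with BTLA also abundant on B cells, while the ligands sit on dendritic cells, macrophages, B cells and stroma.

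B and T cell markers marked the tissue as lymph node. Cd79a, part of the B cell receptor, lay between 395 and 556 FPKM, and Trbc2, a T cell receptor constant segment, lay between 248 and 507 FPKM. The 6 epithelial and tumor markers summed to between 2.05 and 11.7 FPKM. Several libraries stood apart from the rest. Replicates 1 and 2 of both groups were separated from replicates 3 to 5 by the first principal component (36.4% of the variance), and the liver transcript Alb was at no more than 0.0486 FPKM in the 4 former libraries and between 35.1 and 102 FPKM in the 6 latter. MWA+2DG replicate 5 and MWA+PBS replicate 4 held the highest levels of Ifng and Irf1, described with Cd274. No sample label names either split.

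Upstream sequences of Cd274, its neighbour Pdcd1lg2 and Lgals9 are shown first, since Cd274 differed most of the 10 members between single mice and Lgals9 was high in the same mice. They are the 250 bases before the RefSeq start of each gene (build GRCm38.p6, a C57BL/6J genome, so bases of BALB/c may differ; the annotated start of Cd274 also differs between RefSeq and GENCODE), in the direction of transcription. Cd274 and Pdcd1lg2 are neighbours on chromosome 19, at chr19:29367188-29367437 and chr19:29410669-29410918, both on the plus strand. Lgals9, which encodes the TIM-3 ligand galectin-9, is at chr11:78984925-78985174 on the minus strand. Capitals mark GAAA and its reverse complement TTTC, the core that interferon regulatory factors contact.
Cd274: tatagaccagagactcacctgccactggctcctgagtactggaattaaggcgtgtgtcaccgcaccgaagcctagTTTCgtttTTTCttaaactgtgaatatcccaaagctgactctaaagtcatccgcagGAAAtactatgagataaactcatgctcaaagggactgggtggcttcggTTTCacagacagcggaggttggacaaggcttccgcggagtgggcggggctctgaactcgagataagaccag
Pdcd1lg2: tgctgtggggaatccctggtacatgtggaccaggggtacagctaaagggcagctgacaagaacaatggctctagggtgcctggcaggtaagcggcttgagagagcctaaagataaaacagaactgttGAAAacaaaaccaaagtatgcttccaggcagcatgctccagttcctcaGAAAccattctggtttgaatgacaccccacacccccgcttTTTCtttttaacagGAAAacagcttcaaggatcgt
Lgals9: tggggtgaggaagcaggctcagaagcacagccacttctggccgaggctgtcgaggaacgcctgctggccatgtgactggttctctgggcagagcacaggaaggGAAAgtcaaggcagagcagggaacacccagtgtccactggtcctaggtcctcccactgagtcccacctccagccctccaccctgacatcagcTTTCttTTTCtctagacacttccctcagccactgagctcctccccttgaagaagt
The Cd274 and Pdcd1lg2 windows hold 4 such cores each, and the Lgals9 window holds 3. These cores are common: 86.4% of the 32851 promoter windows of the table hold at least 1. A tandem form, GAAA followed after any 2 bases by a second GAAA, on either strand, is in 2.98% of windows and is found once in Lgals9, 55 bases before the start. Of the 10 members 7 have a window in the table (Lag3, Cd28 and Cd86 have none), and 0 of the 7 hold the tandem or the gamma-activated motif TTCNNNGAA, which is in 7.02% of all windows. The motifs were chosen after the expression values had been seen, and no match says only that these letters are not in this window.

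The members spanned a wide range of levels, and their order was led by a receptor. BTLA's gene had the highest mean over the 10 libraries, 57.0 FPKM, above 94.0% of tested genes. Cd86 followed at 21.3 FPKM and Pdcd1 at 13.2 FPKM. Btla exceeded Cd86 and Cd86 exceeded Pdcd1 in all 10 libraries (sign-flip exact permutation test, two-sided, adjusted p = 0.0044 for each, over 9 neighbour pairs). A middle group lay close together, with Cd28 at 10.8, Tigit at 10.4, Lag3 at 9.64 and Cd274 at 9.46 FPKM. Neighbours within that group did not differ beyond their spread (exact permutation test, adjusted p from 0.444 to 0.611), and Pdcd1 against Cd28 missed the threshold (exact permutation test, adjusted p = 0.0562, higher in 6 of 10 libraries). Pdcd1lg2 at 3.00 and Cd80 at 2.85 FPKM lay below Cd274 in all 10 libraries (exact permutation test, adjusted p = 0.0044 for Cd274 against Pdcd1lg2) and did not differ from each other beyond their spread (exact permutation test, adjusted p = 0.444). Havcr2 was lowest at 1.86 FPKM, above only 13.4% of tested genes, and below Cd80 in all 10 libraries (exact permutation test, adjusted p = 0.0044). Within the ligand pairs, PD-L1 transcripts thus exceeded those of PD-L2, and CD86 transcripts exceeded those of CD80, in every library.

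Between the groups no member passed the test in either direction. With limma on log2(FPKM + 1), 0 of 6 receptors and 0 of 4 ligands had an adjusted p below 0.05, beside 0.0% of all tested genes (567 genes, 4.25%, had an unadjusted p below 0.05, and 0 members did). By the study's rule, an unadjusted P below 0.05 with a log fold change beyond 0.25 (read here as log2), 0 members were higher, beside 127 genes (0.952%), and 0 were lower, beside 249 genes (1.87%). That split of all genes turned to 328 higher and 159 lower after rescaling of each library to the same total, and to 222 higher and 177 lower without MWA+2DG replicate 5. The groups overlapped for all 10 members, while 0.802% of tested genes had groups that did not overlap. The median log2 fold change was 0.0065 over the receptors and -0.014 over the ligands, beside 0.0074 over all tested genes.

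**Figure D1:**
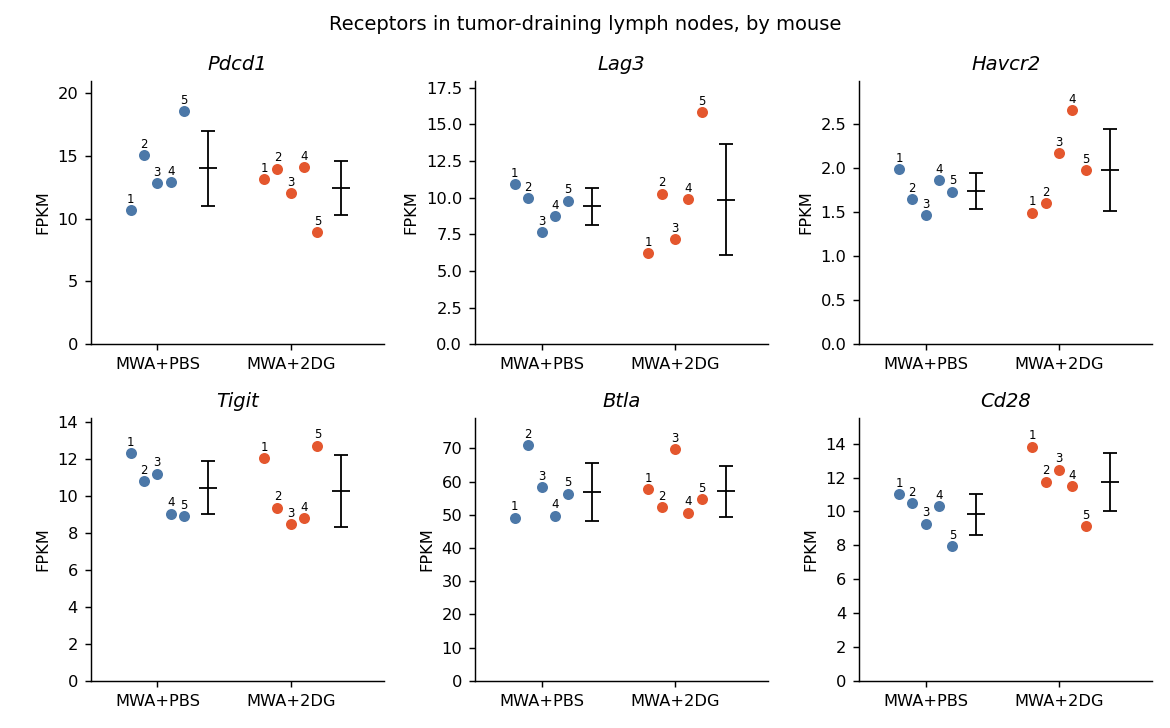
FPKM of the 6 receptors (vertical axes, linear, from 0) in each mouse of the MWA+PBS and MWA+2DG groups; numbers are replicate numbers, and the bar beside each group is the mean ± SD (n = 5). The groups overlap for every receptor, and 4 of 5 MWA+2DG mice lie above the highest MWA+PBS mouse for Cd28.

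Pdcd1 encodes PD-1, which activated T cells and follicular helper T cells carry. It was at 10.7, 15.0, 12.8, 12.9 and 18.6 FPKM in MWA+PBS replicates 1 to 5 and at 13.1, 14.0, 12.0, 14.1 and 8.92 FPKM in MWA+2DG replicates 1 to 5. The highest mouse was in the MWA+PBS group and the lowest in the MWA+2DG group, and the other 8 were interleaved. On the log2 scale MWA+2DG differed from MWA+PBS by -0.15 (SE 0.15, 95% interval -0.49 to 0.18; limma adjusted p = 0.995). It ranged from -0.24 without MWA+PBS replicate 1 to -0.049 without MWA+2DG replicate 5 as single mice were left out.

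Lag3 encodes a CD4-related inhibitory receptor of activated T and NK cells. The MWA+PBS mice were at 10.9, 9.94, 7.64, 8.75 and 9.79 FPKM, and the MWA+2DG mice at 6.19, 10.3, 7.17, 9.88 and 15.8 FPKM. The spread was wider with 2DG, where the lowest and the highest of all 10 mice were found (coefficient of variation 38.1% against 13.4%). For Lag3 the log2 fold change was 0.0059 (SE 0.20, 95% interval -0.44 to 0.45). It was -0.17 without MWA+2DG replicate 5, the mouse with the highest value.

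Havcr2, the TIM-3 gene of exhausted T cells and of myeloid cells, was near the filter on low values. It was at 1.99, 1.65, 1.47, 1.87 and 1.74 FPKM in the MWA+PBS mice and at 1.50, 1.60, 2.17, 2.66 and 1.97 FPKM in the MWA+2DG mice. MWA+2DG replicates 3 and 4 lay above every MWA+PBS mouse, and the other 3 lay within the MWA+PBS range. With 2DG over PBS, Havcr2 had a log2 fold change of 0.11 (SE 0.11, 95% interval -0.13 to 0.35), and of 0.033 without MWA+2DG replicate 4, its highest mouse.

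Tigit encodes an inhibitory receptor of T and NK cells. It was at 12.3, 10.8, 11.2, 9.05 and 8.92 FPKM in the MWA+PBS mice and at 12.0, 9.37, 8.48, 8.82 and 12.7 FPKM in the MWA+2DG mice. High and low mice were found in both groups. Its log2 fold change was -0.03 (SE 0.13, 95% interval -0.31 to 0.26).

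Btla had the narrowest relative range of the 10 members, 1.44-fold from the lowest to the highest mouse. It was at 49.2, 70.9, 58.2, 49.8 and 56.4 FPKM in the MWA+PBS mice and at 57.6, 52.3, 69.9, 50.6 and 54.7 FPKM in the MWA+2DG mice. Each group had a single mouse near 70 FPKM, and the MWA+2DG values lay within the MWA+PBS range. Its log2 fold change was 0.0071 (SE 0.12, 95% interval -0.25 to 0.27).

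Cd28, the costimulatory receptor of the set, was the member closest to the threshold. It was at 11.0, 10.5, 9.29, 10.3 and 7.97 FPKM in the MWA+PBS mice and at 13.8, 11.8, 12.5, 11.5 and 9.15 FPKM in the MWA+2DG mice. MWA+2DG replicates 1 to 4 lay above the highest MWA+PBS mouse, and replicate 5 lay below the MWA+PBS median. The mean was 9.82 ± 1.21 FPKM (SD, n = 5) with PBS and 11.7 ± 1.71 FPKM (SD, n = 5) with 2DG. The log2 fold change was 0.23 (SE 0.11, 95% interval -0.02 to 0.48; limma unadjusted p = 0.0667, adjusted p = 0.995; two-sided exact permutation test, p = 0.0952). It was 0.23 within replicates 1 and 2 and 0.24 within replicates 3 to 5, so the difference was alike in both sets. Of the other members only Cd86 kept its sign (-0.13 and -0.0997). Pdcd1 (0.09 and -0.32), Lag3 (-0.34 and 0.24), Havcr2 (-0.14 and 0.28) and Tigit (-0.11 and 0.02) changed sign between these sets. So did Btla (-0.10 and 0.08), Cd274 (-0.11 and 0.45), Pdcd1lg2 (-0.08 and 0.09) and Cd80 (-0.29 and 0.11). Without MWA+2DG replicate 5, the lowest of its group, the Cd28 log2 fold change was 0.31 (limma unadjusted p = 0.011). Without MWA+PBS replicate 1, the highest of its group, it was 0.27 (limma unadjusted p = 0.0486). Both p-values come from leaving out the mouse of its group most against the difference, so they are no test of a difference. The fold change was lowest without MWA+PBS replicate 5, at 0.17 (limma unadjusted p = 0.153), and was 0.17 without MWA+2DG replicate 1 (limma unadjusted p = 0.159). The unadjusted p lay below 0.05 in 8 of 22 alternatives, those leave-outs among them, and the adjusted p in 0. The 12 T cell markers, measured beside it, were all higher in the mean with 2DG, by 0.18 on the log2 scale (two-sided exact permutation test, p = 0.254). Relative to them Cd28 differed by 0.05 (exact permutation test, p = 0.698).

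**Figure D2:**
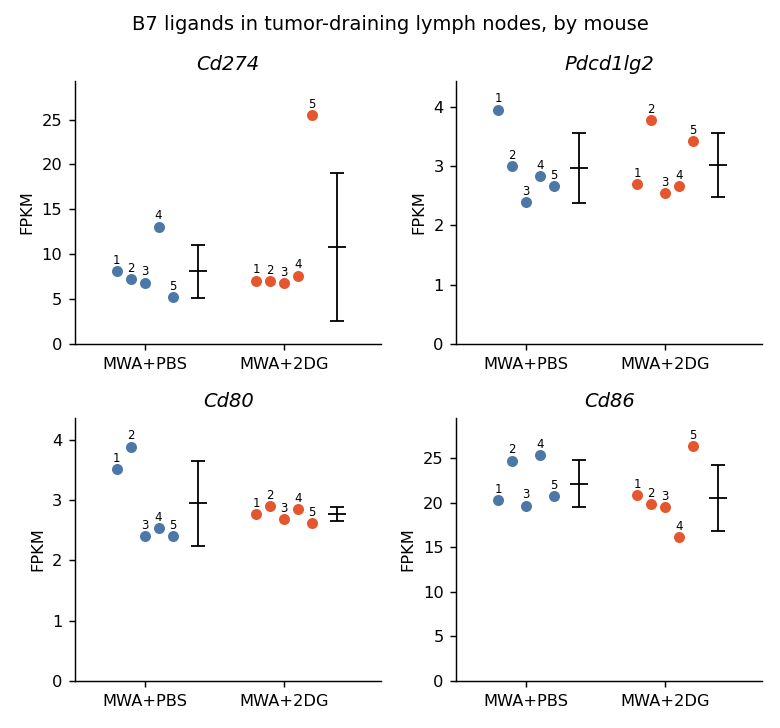
FPKM of the 4 B7 ligands (vertical axes, linear, from 0) in each mouse of the MWA+PBS and MWA+2DG groups; numbers are replicate numbers, and the bar beside each group is the mean ± SD (n = 5). For Cd274, MWA+2DG replicate 5 at 25.5 and MWA+PBS replicate 4 at 13.1 FPKM stand above the other 8 mice.

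Among the ligands, Cd274 varied most between mice. PD-L1, its product, is induced by interferon gamma in many cell types. It was at 8.17, 7.23, 6.85, 13.1 and 5.25 FPKM in the MWA+PBS mice and at 7.08, 7.03, 6.77, 7.63 and 25.5 FPKM in the MWA+2DG mice. MWA+2DG replicate 5 lay 3.61-fold and MWA+PBS replicate 4 lay 1.85-fold above the median of the other 8 mice, which were between 5.25 and 8.17 FPKM. The group medians were 7.23 FPKM with PBS and 7.08 FPKM with 2DG. The log2 fold change was 0.23 (SE 0.34, 95% interval -0.52 to 0.98; limma adjusted p = 0.995), and it was -0.11 without MWA+2DG replicate 5 and 0.06 without both of those mice.

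Pdcd1lg2 encodes PD-L2, a ligand largely of dendritic cells and macrophages. It was at 3.95, 3.00, 2.40, 2.83 and 2.66 FPKM in the MWA+PBS mice and at 2.70, 3.77, 2.55, 2.67 and 3.42 FPKM in the MWA+2DG mice. The mouse with the highest Cd274 had rank 3 in Pdcd1lg2, and MWA+PBS replicate 4 had rank 5. Pdcd1lg2 had a log2 fold change of 0.02 (SE 0.12, 95% interval -0.24 to 0.29). Annotated antisense transcripts overlap both Cd274 and Pdcd1lg2, and no source used here states whether the quantification used strand.

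Cd80 was at 3.52, 3.88, 2.40, 2.53 and 2.39 FPKM in the MWA+PBS mice and at 2.76, 2.90, 2.68, 2.85 and 2.62 FPKM in the MWA+2DG mice. The 5 MWA+2DG values all lay inside the gap between the high MWA+PBS replicates 1 and 2 and the low replicates 3 to 5. The SD was 0.704 FPKM with PBS and 0.117 FPKM with 2DG. Cd80 had a log2 fold change of -0.05 (SE 0.11, 95% interval -0.29 to 0.19).

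Cd86 was at 20.2, 24.7, 19.7, 25.3 and 20.7 FPKM in the MWA+PBS mice and at 20.9, 19.8, 19.5, 16.1 and 26.3 FPKM in the MWA+2DG mice. MWA+2DG replicate 5 was highest and MWA+PBS replicate 4 was next, as for Cd274, but MWA+PBS replicate 2 was nearly as high. Cd86 had a log2 fold change of -0.11 (SE 0.12, 95% interval -0.39 to 0.16). Leaving out its highest mouse, MWA+2DG replicate 5, gave -0.20, and leaving out its lowest, replicate 4 of that group, gave -0.034.

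**Figure D3:**
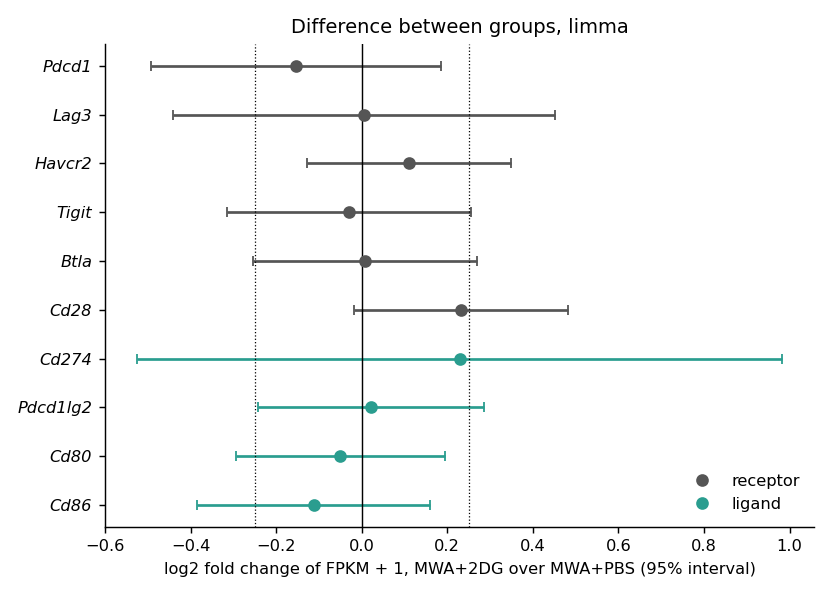
Log2 fold change of FPKM + 1, MWA+2DG over MWA+PBS (horizontal axis), for the 6 receptors and 4 ligands from limma (n = 5 mice per group); bars are 95% intervals and dotted lines mark 0.25 in either direction. Every interval includes 0; that of Cd28 starts at -0.02 and that of Cd274 is the widest, from -0.52 to 0.98.

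The intervals limit how large a group difference could be only on the log2 scale of the fit. The constant added to FPKM shrinks the changes of low genes on that scale. The intervals of Havcr2, Btla, Pdcd1lg2, Cd80 and Tigit lay within 0.35 on this scale in either direction, while that of Cd274 was the widest. Havcr2, Cd80 and Pdcd1lg2 were the lowest members, so their intervals bound the change in FPKM itself less closely. For Havcr2 the log2 fold change was 0.11 in the fit and 0.16 with an added constant of 0.01. With 5 mice against 5 an exact permutation test cannot give a two-sided p below 0.0079.

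The genes that control PD-L1 were set beside Cd274 next. They encode interferon gamma, its receptor and signaling, the interferon regulatory factors, and CMTM6 and CMTM4, which keep PD-L1 at the cell surface. The list also holds the transcription factor genes Stat3, Nfkb1, Rela, Myc and Hif1a. By the study's rule 0 of 14 tested genes of this list were higher or lower with 2DG (Ifng was below the filter). The smallest unadjusted p belonged to Cmtm6 (39.1 ± 1.75 and 42.4 ± 2.88 FPKM, SD, n = 5; limma log2 fold change 0.11, unadjusted p = 0.128) and Jak2 (20.7 ± 2.11 and 23.2 ± 2.41 FPKM; 0.15, unadjusted p = 0.131).

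The same pair of mice held the 2 highest values of Cd274 and of 5 of the 15 control genes, Ifng and Irf1 among them, while both receptor genes of interferon gamma lay low in them. The share of all tested genes with this order was not counted, so 5 of 15 cannot be read as particular to this list. MWA+2DG replicate 5 and MWA+PBS replicate 4 also lay highest on the first principal component, at 33.5 and 26.9, with the other mice at 13.2 or below. Ifng, which encodes interferon gamma, was at 4.02 FPKM in MWA+2DG replicate 5 and at 2.16 FPKM in MWA+PBS replicate 4, and between 0.188 and 0.579 FPKM in the other 8. Irf1, an interferon-induced regulatory factor, was at 119 and 69.6 FPKM in those mice, with the rest between 39.6 and 55.1 FPKM. Ifngr2, a chain of the interferon gamma receptor, was lowest in the same mice, at 14.8 and 16.1 FPKM against 19.6 to 23.5 FPKM. The other chain, Ifngr1, was at 40.8 and 43.5 FPKM against 43.4 to 53.4 FPKM. The TIM-3 ligand gene Lgals9 followed the same order, at 99.9 and 70.2 FPKM against 26.3 to 44.8 FPKM. Other values of MWA+2DG replicate 5 were also at the ends of the range: of the 10 mice it had the highest Lag3 and Tigit and the lowest Pdcd1. MWA+PBS replicate 4 was within the range of the other mice for each of these 3 receptors.

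Across the 10 mice Cd274 correlated with 6 of 15 control genes at an adjusted p below 0.05 by Pearson's r and with 0 of 15 by Spearman's rho (permutation test, 100000 resamples). Of the 6, 5 were positive and 1 was negative. The negative one was Ifngr2, with an r of -0.838 (permutation p = 0.0065, adjusted p = 0.0196) and a rho of -0.370 (permutation p = 0.297). For Irf1, r was 0.937 (permutation p = 0.0034, adjusted p = 0.0196) and rho was 0.588 (permutation p = 0.0804). Without the 2 mice farthest from the median of Cd274, r was 0.26 for Irf1 and 0.12 for Ifngr2, so these relations rested on those 2 mice. Within replicates 3 to 5, a set of 6 mice that holds both, r was 0.955 for Irf1.

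The summed NK cell markers were highest in the same mice. The 5 markers summed to 108 FPKM in MWA+2DG replicate 5 and to 69.4 FPKM in MWA+PBS replicate 4. The other 8 mice lay between 11.8 and 51.1 FPKM, with MWA+PBS replicate 5 at 51.1 FPKM. Gzma, which encodes granzyme A, gave 87.6 and 55.5 FPKM of the 2 highest sums. Klrb1c, another of the markers, was higher in MWA+PBS replicate 5 (1.48 FPKM) than in MWA+PBS replicate 4 (1.02 FPKM). The 8 macrophage and monocyte markers did not move one way. Their sum was highest in MWA+2DG replicate 5 (189 FPKM, the others between 95.0 and 154 FPKM), where Ly6c2, a marker of inflammatory monocytes, gave 99.5 FPKM of it. In that mouse 4 of the 8 were at their highest and 3 were at their lowest of the 10 mice: Csf1r (18.0 FPKM), Siglec1 (10.2 FPKM) and Marco (2.87 FPKM). Ly6c2 and these 3 were named after their values were seen. In MWA+2DG replicate 5 the 12 T cell markers summed to 821 FPKM, eighth of the 10 mice, and the 10 dendritic cell markers to 186 FPKM, ninth. The 6 epithelial and tumor markers were low in all mice, but their sum was also highest in MWA+2DG replicate 5, at 11.7 FPKM. It was 4.21 FPKM in MWA+PBS replicate 4 and between 2.05 and 5.92 FPKM in the other 8. The part of these cells in the Cd274 level was not tested.

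**Figure D4:**
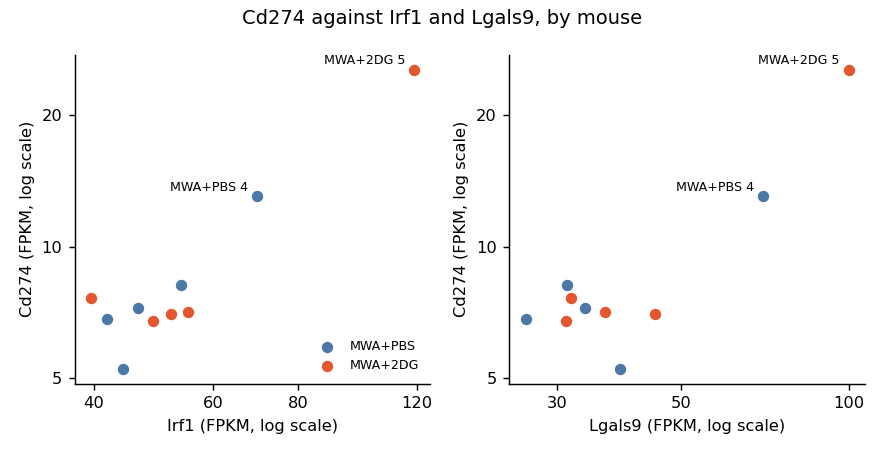
Cd274 (vertical axis, FPKM, log scale) against Irf1 and Lgals9 (horizontal axes, FPKM, log scale), with each point a mouse (n = 5 per group). MWA+2DG replicate 5 and MWA+PBS replicate 4 lie at the upper right of each panel, apart from the other 8 mice.

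Within each library 4 pairs with a shared partner were compared, as log2 ratios of FPKM + 1; the added 1 draws the ratios of low genes toward 0 and leaves some dependence on the scaling between libraries. Cd28 against Pdcd1, the costimulator against the brake that acts on it, was at -0.46 ± 0.43 log2 (SD, n = 5) with PBS and at -0.07 ± 0.17 with 2DG. Each MWA+2DG mouse exceeded the MWA+PBS median, but the difference of 0.39 missed the threshold (two-sided exact permutation test, p = 0.0556). With single mice left out it ranged from 0.22 without MWA+PBS replicate 5 (exact permutation test, p = 0.159) to 0.51 without MWA+PBS replicate 1, the highest of its group (exact permutation test, p = 0.0079). The lower p-value comes from leaving out the mouse of that group most against the difference, so it is no test of a difference.

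Tigit against Cd226, its activating competitor for PVR, was at 1.39 ± 0.18 log2 (SD, n = 5) with PBS and at 1.12 ± 0.24 with 2DG. In 4 of 5 MWA+2DG mice the ratio lay below the whole MWA+PBS range of 1.16 to 1.63, and the exception was MWA+2DG replicate 5 at 1.54. The difference was -0.27 (exact permutation test, p = 0.0714), and with single mice left out it ranged from -0.38 without that mouse to -0.21 without MWA+PBS replicate 3 (exact permutation test, p from 0.0159 to 0.143). The lowest of these p-values comes from leaving out the highest mouse of its own group. The ligand ratios differed less: 0.06 for Cd80 against Cd86 (exact permutation test, p = 0.714) and 0.21 for Cd274 against Pdcd1lg2 (exact permutation test, p = 0.611). None of the 4 passed 0.05 before adjustment.

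Relative to the mean of the T cell markers, the receptors were compared per library in log2(FPKM + 1). Pdcd1 differed by -0.33 (exact permutation test, p = 0.135), with all 5 MWA+2DG mice below the MWA+PBS median. It differed by -0.51 without MWA+PBS replicate 1, the lowest of its group, to -0.24 without MWA+PBS replicate 5 (exact permutation test, p = 0.0079 and 0.246). The lower p-value comes from leaving out the mouse of that group most against the difference, so it is no test of a difference. Tigit differed by -0.21 (exact permutation test, p = 0.310) and Lag3 by -0.17 (exact permutation test, p = 0.587). With single mice left out Tigit ranged from -0.37 to -0.12 (exact permutation test, p from 0.0397 to 0.571) and Lag3 from -0.43 to 0.0015 (exact permutation test, p from 0.0159 to 1). Both lowest p-values come from leaving out MWA+2DG replicate 5, the mouse highest in each gene, so they are no test of a difference. Btla differed by -0.17 and Havcr2 by -0.07 (exact permutation test, p = 0.421 and 0.714), and Btla ranged from -0.32 without MWA+PBS replicate 1 to -0.10 without MWA+PBS replicate 3. None of the 4 ligands differed relative to dendritic cell or B cell markers (exact permutation test, smallest p = 0.5).

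Partner genes of these receptors were taken from lists of their other ligands and of related receptors. Of 12 tested ligands 1 was higher by the study's rule and 0 were lower, and of 13 tested receptors 0 were higher or lower, beside the 0.952% and 1.87% of all genes. Their median log2 fold changes were 0.0079 and 0.05.

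Tnfrsf14 encodes HVEM, the partner of BTLA on T cells, B cells and dendritic cells. It was at 13.1, 14.0, 16.3, 20.7 and 13.9 FPKM in the MWA+PBS mice and at 22.9, 17.8, 29.8, 20.2 and 23.0 FPKM in the MWA+2DG mice. All 5 MWA+2DG mice were above the MWA+PBS median, and 3 were above the highest MWA+PBS mouse. The log2 fold change was 0.51 (SE 0.15, 95% interval 0.18 to 0.84; limma unadjusted p = 0.0057, adjusted p = 0.995; two-sided exact permutation test, p = 0.0238), beside 0.0071 for Btla itself. Its upstream window (not printed) also holds the tandem GAAA form, 64 bases before the start.

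Pvr encodes the ligand that TIGIT and CD226 share. It was at 2.99, 2.53, 2.89, 2.44 and 1.95 FPKM in the MWA+PBS mice and at 3.31, 3.02, 3.42, 3.11 and 3.03 FPKM in the MWA+2DG mice. The groups did not overlap, by a margin of 2.99 to 3.02 FPKM, as was so for 0.802% of all tested genes. That share is near the 0.0079 of random regroupings that would separate the groups of any 1 gene. The log2 fold change of 0.24 (SE 0.09; limma unadjusted p = 0.0202, adjusted p = 0.995; exact permutation test, p = 0.0079, the smallest it can give) lay under the 0.25 of the study's rule.

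Cd226, the activating receptor for PVR, was at 3.90, 3.32, 2.95, 3.48 and 3.12 FPKM in the MWA+PBS mice and at 5.29, 4.20, 3.65, 4.00 and 3.70 FPKM in the MWA+2DG mice. All 5 MWA+2DG mice exceeded the MWA+PBS median, with a log2 fold change of 0.24 (limma unadjusted p = 0.0296, adjusted p = 0.995; exact permutation test, p = 0.0317). Its unadjusted limma p lay above 0.05 (0.0511 to 0.0721) when any of 5 mice was left out, replicates 2, 3 and 5 with PBS and 1 and 2 with 2DG. Pvrig, an inhibitory receptor for the related ligand nectin-2, was at 2.00 ± 0.48 FPKM (SD, n = 5) with PBS and 1.46 ± 0.38 FPKM with 2DG (log2 fold change -0.28; limma unadjusted p = 0.059, adjusted p = 0.995). None of these genes passed an adjusted p of 0.05.

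**Figure D5:**
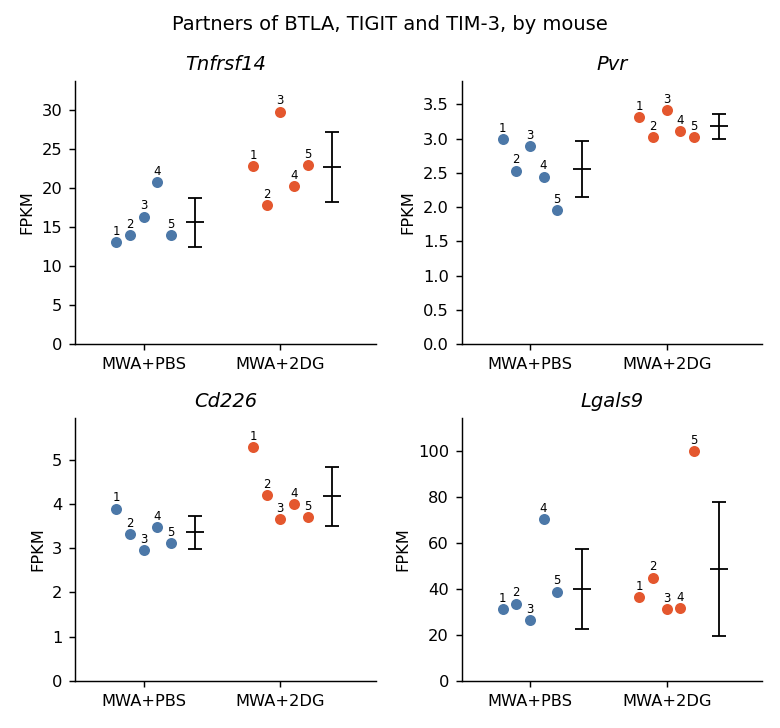
FPKM of Tnfrsf14 (partner of BTLA), Pvr and Cd226 (partners in the TIGIT axis) and Lgals9 (ligand of TIM-3) in each mouse; vertical axes are linear from 0, numbers are replicate numbers, and the bar beside each group is the mean ± SD (n = 5). All 5 MWA+2DG mice exceed every MWA+PBS mouse for Pvr and 3 of 5 for Tnfrsf14 and Cd226. Of all tested genes 0.802% had groups that did not overlap.

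Signaling genes at the receptor tails were compared as a list of 20, all tested. By the study's rule 4 were higher with 2DG and 0 were lower, beside 0.952% and 1.87% of all tested genes, and the list's median log2 fold change was 0.07. Of those 4, 3 are described. Prkcq, the protein kinase C isoform recruited by CD28, was at 10.8 ± 2.37 FPKM (SD, n = 5) with PBS and 15.0 ± 2.12 FPKM with 2DG (log2 fold change 0.45). Dgka, a diacylglycerol kinase that dampens this signaling, was at 74.6 ± 10.2 and 95.0 ± 11.4 FPKM (0.35). Grap2, an adaptor that binds the CD28 tail, was at 28.5 ± 4.36 and 35.3 ± 5.50 FPKM (0.30), and its unadjusted p of 0.0489 lay above 0.05 in 12 of 22 alternatives. The groups overlapped for each of these genes, and limma's adjusted p was 0.995 for each.

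Transcription factors that set checkpoint receptor expression gave 1 of 13 tested genes higher by the study's rule and 0 lower, beside the same 0.952% and 1.87%, with a median log2 fold change of 0.05. Tcf7, which encodes the TCF-1 of naive and stem-like T cells, was at 85.1 ± 2.21 FPKM (SD, n = 5) with PBS and 107 ± 14.7 FPKM with 2DG (log2 fold change 0.31; limma adjusted p = 0.995). MWA+2DG replicates 1 to 4 lay above the MWA+PBS range and replicate 5 lay inside it, the same order as for Cd28. Prdm1, which encodes the effector factor Blimp-1, was at 2.01 ± 0.40 and 1.59 ± 0.25 FPKM (-0.21; limma unadjusted p = 0.0741).

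Marker lists of the cells that could carry these genes gave 0 genes with an adjusted p below 0.05. By the study's rule 1 of 12 T cell markers was higher with 2DG (Cd8a, limma log2 fold change 0.28). Lower were 1 of 8 macrophage and monocyte markers (Csf1r, -0.30) and 2 of 3 tested neutrophil markers (S100a8, -1.43, and S100a9, -1.61). The other marker lists held none, beside 0.952% higher and 1.87% lower of all tested genes. The 12 T cell markers summed to between 758 and 1356 FPKM with PBS and between 821 and 1274 FPKM with 2DG. The 8 B cell markers summed to between 1557 and 1765 and between 1459 and 1695 FPKM. The 10 dendritic cell markers, led by Ccr7, summed to between 149 and 297 and between 186 and 262 FPKM. The 8 macrophage and monocyte markers, led by Cd68, summed to between 104 and 154 and between 95.0 and 189 FPKM. The 10 stromal and endothelial markers, led by Ccl21a, summed to between 1654 and 2561 and between 1581 and 3027 FPKM. The 7 regulatory and follicular helper T cell markers, led by Cxcr5, summed to between 108 and 124 and between 101 and 114 FPKM. The 5 neutrophil markers, led by S100a9, summed to between 18.5 and 84.4 FPKM with PBS and between 9.04 and 17.0 FPKM with 2DG, with no overlap (exact permutation test, p = 0.0079). Of single tested genes 0.802% had groups that did not overlap. The 84.4 FPKM was MWA+PBS replicate 1, and the other MWA+PBS mice lay between 18.5 and 22.0 FPKM. Within replicates 1 and 2 the log2 difference was -2.79 for S100a8 and for S100a9. Within replicates 3 to 5 it was -0.51 for S100a8 and -0.82 for S100a9. Of the 5 neutrophil markers, 3 were listed at 0 in at least 1 mouse.

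Between the replicate sets no member differed at an adjusted p below 0.05, beside 3.66% of all tested genes. Cd80 came closest, lower in replicates 3 to 5 by a log2 difference of -0.25 (limma unadjusted p = 0.0164, adjusted p = 0.142). Cd28 differed by -0.21 (limma unadjusted p = 0.0632) and Pdcd1lg2 by -0.21 (limma unadjusted p = 0.0772). Cd274 differed by 0.31 (limma unadjusted p = 0.402), with its highest mice both in replicates 3 to 5.

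The members did not move together as a set across the 10 mice. Of 45 pairs 0 had an adjusted p below 0.05 by Pearson's r or Spearman's rho (permutation test; 2 pairs had an unadjusted p below 0.05 by Pearson's r). Pdcd1 and Cd274 had an r of -0.754 (permutation p = 0.0133, adjusted p = 0.600) and a rho of -0.430 (permutation p = 0.222), and r was -0.13 without the 2 mice farthest from the median of Pdcd1. Lag3 and Pdcd1lg2 had an r of 0.642 (permutation p = 0.0450, adjusted p = 0.622) and a rho of 0.770 (permutation p = 0.0133, adjusted p = 0.560), and r was 0.745 without the 2 mice farthest from the median of Lag3. Of 90 relations between a member and a marker list, 0 passed an adjusted p of 0.05 by either measure.

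The genes most like each member were those of highest Pearson r over the 10 mice among the tested genes, given as a description. For Pdcd1 they were Akt1 (r = 0.925), Zfp61 (0.913) and Cdc16 (0.913), and for Lag3 Unc93b1 (0.885), Ctsz (0.877) and Phc2 (0.854). For Havcr2 they were Gm44103 (0.981) and Rragd (0.945), for Tigit Cttnbp2nl (0.917), Dym (0.888) and Sema3g (0.883), and for Btla Gm16845 (0.883), Abhd17b (0.853) and Tmem241 (0.833). Cd28 was most like Tbcel (0.980), Rassf5 (0.965) and Rab11fip4 (0.960), each still at 0.932 or above without the 2 mice farthest from the median.

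Among the ligands, Cd274 was most like Rmdn3 (0.984), Samhd1 (0.978), an interferon-inducible restriction factor, and Clic4 (0.977). Without the 2 mice highest in Cd274 these were 0.806, 0.552 and 0.737. Pdcd1lg2 was most like Slc35g2 (0.901), Gm16335 (0.896) and Psmd7 (0.889), Cd80 like Cyb561 (0.963), Bag5 (0.937) and Urgcp (0.937), and Cd86 like Gatm (0.903), Fgr (0.893), a myeloid Src-family kinase, and B430306N03Rik (0.875). The genes were picked from all tested genes for these values of r, so they carry no test.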

How the data were processed

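After fastp quality control and HISAT2 mapping, the authors ran StringTie and ballgown, and the deposited unit is FPKM, in a table for each mouse. The submitters' processing notes name cutadapt 1.9, HISAT2 2.0.4, UMI-tools, StringTie 1.3.4d and mm9. FPKM holds no read counts, so depth is unknown. The reference's gene name table matched 33541 of 33643 identifiers, and 57 symbols with several identifiers were summed. The filter kept genes whose mean FPKM reached 1. log2(FPKM + 1) was fitted by limma 3.58.1 (R 4.3.3), with no covariate and Benjamini-Hochberg adjustment over 13334 genes; fold changes on this scale understate those of low genes. The fit was tested on simulated data. Exact permutation tests covered all 252 regroupings of the 10 mice, in Python 3.11.15 with scipy 1.17.1.

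The labels number separate mice, so p-values measure the spread between animals. Named genes were the 10 members and the 3 most like each member. Of each other list they were the 2 of smallest P and any gene by the study's rule. Marker lists are given by sums and by their genes that met the study's rule. Lgals9, Irf1 and Ifng were added after their values had been seen. Results of some genes that the rule selects are left out. The members, lists and replicate sets were chosen with earlier results of these data known. Alternatives were pseudocounts of 0.1 and 0.01, no filter, a filter of 5 FPKM, rescaling to 1000000, median ratio scaling, quantile normalization, the Wilcoxon test, limma-trend, a replicate block, a set term, and leaving out each mouse. Leaving out MWA+PBS replicate 4 and MWA+2DG replicate 5 together was chosen after seeing the data. Promoter windows came from RefSeq (GRCm38.p6); receptor proteins were not analysed here.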

Additional observations from a re-analysis of the deposited data

Results flagged for a closer look

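Within groups of 5 mice, the highest or lowest value was compared with its gap to the nearest of the others, as a share of the range. The groups were those of the members, the pair ratios, the genes named from the lists other than cell type markers, and Lgals9, Ifng and Irf1. Cell type markers, Ifngr1, Ifngr2 and the genes most like each member were not examined. Of 56 groups examined, 8 had a gap above 0.71 of the range. Chance flags about 1 in 20 groups, but 5 of the 8 belong to Lgals9, Ifng and Irf1, which were added after their values had been seen, so the count cannot be read against chance. Without these genes 3 of 50 groups remain, beside 2.5 by chance, and 1 of those 3 is a ratio that holds Cd274 again. All 8 were high values, and among the groups examined they fell in 2 mice. The marker S100a8, which was not examined, was at 21.9 FPKM in MWA+PBS replicate 1. It lay between 2.40 and 4.05 FPKM in the other MWA+PBS mice, so the count of mice holds only for the genes examined.

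In MWA+2DG replicate 5, Cd274 was at 25.5 FPKM, while the other 4 mice of the group lay between 6.77 and 7.63 FPKM. The log2 ratio of Cd274 to Pdcd1lg2, in FPKM + 1, was 2.58, against 0.75 to 1.24 in the others, and that of Tigit to Cd226 on the same scale was 1.54, against 0.97 to 1.05. Lgals9 was at 99.9 FPKM (others 31.0 to 44.8), Ifng at 4.02 FPKM (others 0.188 to 0.539) and Irf1 at 119 FPKM (others 39.6 to 55.1).

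In MWA+PBS replicate 4, Lgals9 was at 70.2 FPKM (others 26.3 to 38.8) and Ifng at 2.16 FPKM (others 0.213 to 0.579). Cd274 of that mouse, 13.1 FPKM, did not pass the same limit.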

How the results depend on the processing

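No alternative gave a member an adjusted p below 0.05. For all genes that count was 0 except for 1 gene without MWA+PBS replicate 2. By the study's rule 69 genes were higher and 161 lower with a filter of 5 FPKM (fewer genes tested), 328 and 159 after rescaling, 67 and 143 by the Wilcoxon test, and 202 and 156 without both MWA+PBS replicate 4 and MWA+2DG replicate 5; with single mice left out they ranged from 80 to 222 and from 177 to 315. The receptors past the rule became 1 (Cd28) after rescaling, without both of those mice, and in 2 single leave-outs (range 0 to 1). Rescaling sets equal the summed FPKM, which lay between 316374 and 359984 with PBS and between 312143 and 325765 with 2DG. The median log2 fold change over all tested genes was 0.0074 in the main fit and 0.068 after rescaling. The cause of the changes under the other settings was not tested.

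The numbers were not taken as pairs. Deviations from the group means of same-numbered mice correlated at 0.33, 0.50, 0.11, 0.03 and 0.15 for numbers 1 to 5. Unlike numbers ranged from -0.44 (MWA+PBS replicate 2 with MWA+2DG replicate 5) to 0.56 (MWA+PBS replicate 4 with MWA+2DG replicate 5). With the replicate block 0 genes passed an adjusted p of 0.05, 164 were higher and 285 lower by the rule, and the unadjusted p of Cd28 was 0.0119.

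The receptor median was 0.068 after rescaling, the same as the 0.068 over all tested genes under that setting. Without both mice the receptor median was -0.047, beside 0.021 over all tested genes. With single mice left out the receptor median ranged from -0.026 to 0.070 and the ligand median from -0.074 to 0.054. Log2 fold changes near 0 turned sign: Lag3 was -0.00056 after quantile normalization and Tigit 0.030 after rescaling, and without both mice Lag3 was -0.19, Btla -0.025 and Pdcd1lg2 -0.025 (Tigit was -0.15). With single mice left out Lag3 ranged from -0.17 to 0.14, Tigit from -0.10 to 0.029, Btla from -0.067 to 0.088, Cd274 from -0.11 to 0.40, Pdcd1lg2 from -0.042 to 0.10 and Cd80 from -0.10 to 0.031. The ratios of FPKM + 1 ranged from 0.22 to 0.51 for Cd28 to Pdcd1, -0.025 to 0.17 for Cd80 to Cd86, -0.097 to 0.39 for Cd274 to Pdcd1lg2 and -0.38 to -0.21 for Tigit to Cd226. Against T cell markers the ranges were -0.43 to 0.0015 for Lag3, -0.16 to 0.034 for Havcr2 and -0.026 to 0.14 for Cd28. Against dendritic cell markers they were -0.20 to 0.43 for Cd274 and -0.11 to 0.099 for Pdcd1lg2, and against B cell markers -0.088 to 0.50 for Cd274, -0.012 to 0.079 for Cd80 and -0.18 to 0.057 for Cd86. The unadjusted p of Tnfrsf14 and Prkcq (22 alternatives each) and Pvr (21) stayed below 0.05 in every alternative run, while it went above 0.05 in 12 of 22 for Grap2, 5 of 21 for Cd226 and 1 of 22 (the Wilcoxon test) for Dgka and Tcf7. FPKM gives no depth, so counting error is unknown, most so for Havcr2, Cd80 and Pdcd1lg2.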
